A study of Mus musculus with 12 samples.

Results

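Helper T cells grown with IL-4 and TGF-β, which become the IL-9 producing Th9 cells, were compared with cells grown with IL-4 and no TGF-β, which become Th2 cells. The comparison used 6 of the 12 arrays of the study, the 3 titled as unstimulated Th9 cells and the 3 titled as unstimulated Th2 cells, and 17920 genes. Per the labels, naive CD4+ T cells of C57BL/6 mice came from spleen and lymph nodes and were activated through CD3 and CD28. IL-4 (20 ng/ml) and anti-IFN-γ were present in both cultures, and TGF-β (2 ng/ml) in the Th9 cultures only. Cultures were expanded on day 3 and RNA was taken on day 5. At expansion, per the labels, IL-4 and TGF-β were added again to Th9 cells, and no such addition is given for Th2 cells, so the cultures may differ in IL-4 after that day as well. Whether the arrays of a group are separate cultures or mice is not given in the labels, so the spread among arrays may be technical. The p-values rest on that spread within all groups of the 12 arrays, Treg and restimulated Th9 arrays included, unless only the 6 arrays were fitted.

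TGF-β binds a type II receptor that activates a type I receptor, which phosphorylates SMAD2 and SMAD3. These join SMAD4 in the nucleus, and SMAD7, SKI and SKIL limit the signal. In CD4+ T cells TGF-β alone induces Foxp3, the transcription factor of regulatory T cells, while IL-4 signals through STAT6 to GATA3 and the Th2 cytokines. The combination of both is the classical way to make Th9 cells.

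Every array of the comparison was of similar quality, but the groups lay on different slides. Of the 3 slides, the first held the 3 Th2 arrays and 1 regulatory T cell (Treg) array, and the third held the 3 Th9 arrays and 1 array of Th9 cells restimulated with anti-CD3. Th9 and Th2 arrays never shared a slide, so slide and culture cannot be told apart within a slide, and no within-slide value exists. A fit with slide as a block reached the comparison only through the Treg and restimulated arrays, and its median standard error was 0.367 against 0.166 without the block. The only link of the third slide to the others was the restimulated array 3, which stood apart. Its Xist level was -8.19, against 3.15 to 4.23 on the other 11 arrays, and its level of the Y-linked gene Ddx3y was 0.96, against -8.44 to -7.98. It was also lower in genes of recent activation, with Csf2 at 4.05, 3.33 and 0.65 on restimulated arrays 1, 2 and 3. Without that array the slide block could not be fitted, because the third slide would hold Th9 arrays alone.

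A level here is the log2 signal minus the 75th percentile of its array, so a level of 0 equals that percentile. Differences are Th9 minus Th2 on the log2 scale with limma standard errors (SE, n = 3 arrays per group), and a gene was called at a Benjamini-Hochberg adjusted p under 0.05. An uncalled gene whose 95% limma interval lay wholly between -1 and 1, that is within a 2-fold change either way, is said to have stayed still. Other uncalled genes are undecided. In bulk RNA, fewer cells of a type and less RNA per cell cannot be told apart.

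The added TGF-β went with a change in about as many genes upward as downward, while most genes stayed still. Of 17920 genes, 1391 (7.76%) were higher and 1656 (9.24%) lower in Th9 cells, and 610 and 505 passed a 2-fold change. Another 12172 genes (67.9%) stayed still and 2701 (15.1%) were undecided. These shares are the background against which each count of a list or family below is to be read. Th9 and Th2 arrays correlated at 0.976 to 0.982 with each other and at 0.991 to 0.995 within a group. With slide as a block 186 genes were higher (1.04%) and 129 lower (0.72%), among them 113 and 91 of the genes called without the block. The sign was the same for 94.8% of the called genes, and 157 turned. Leaving out single arrays lowered the counts, to 848 higher and 965 lower without Th9 array 2. They were 936 and 1083 without Th9 array 1, 953 and 955 without Th2 array 1, and 983 and 885 without Th2 array 2. In all 6 such fits 717 of the higher and 716 of the lower genes were called. Any call named below was lost with slide as a block unless the text says that it was kept.

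**Figure D1:**
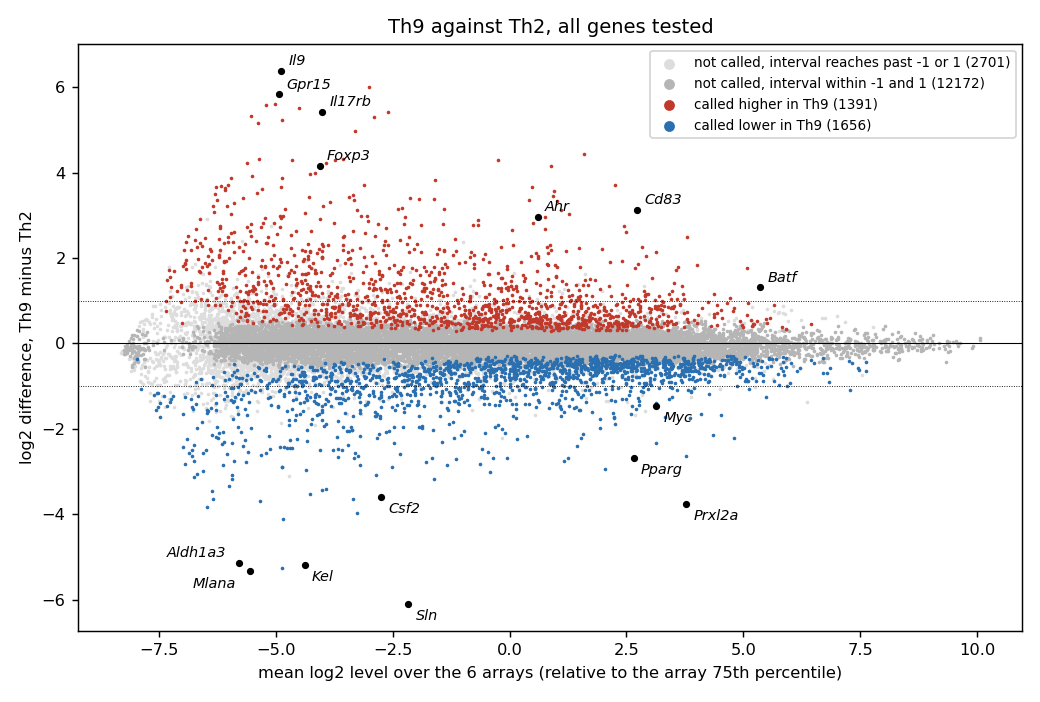
Log2 difference, Th9 minus Th2, against the mean log2 level over the 6 arrays for 17920 genes, coloured by call; dotted lines mark -1 and 1. Most genes lie between the dotted lines, Il9, Gpr15 and Il17rb are among the largest increases, and Sln is the lowest point.

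Of the 15 largest increases, 9 came from genes with no Th2 array well above background, and 6 from genes above it on 1 or more Th2 arrays. Il9, the signature cytokine gene, had levels of -2.43, -1.18 and -1.47 on the Th9 arrays and -8.01, -8.06 and -8.18 on the Th2 arrays. Gpr15, a receptor that guides T cells to the large intestine, stood at -2.81, -2.28 and -0.95 against -7.94, -7.86 and -7.75. Il17rb, the IL-25 receptor chain, stood at -1.48, -1.80 and -0.61 against -7.06, -7.17 and -5.95. In all 3 genes every Th9 array was above every Th2 array, which the rule for the largest changes required. No Th2 array was well above background in these 3 genes. The signal was at least 18.1-fold higher for Il9 (adjusted p = 4.51e-06), 14.5-fold for Gpr15 (adjusted p = 9.37e-06) and 23.8-fold for Il17rb (adjusted p = 4.2e-05). Such a bound sets the Th9 mean against the lowest signal that passed as well above background on the Th2 arrays, or the probe's own signal where that was higher. It holds for the processed signal only. With normexp background correction, which adds 50 units to every signal, the differences were 1.91 for Il9, 1.80 for Gpr15 and 2.23 for Il17rb (3.75-fold, 3.48-fold and 4.68-fold), and for all 29 named genes given here with such a bound the normexp fold was below it. With slide as a block the calls of Il9 (4.89, adjusted p = 0.0213) and Gpr15 (6.01, adjusted p = 0.0257) were kept, and that of Il17rb was not (3.77, adjusted p = 0.0898).

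The upstream 250 bases of these genes, and of Kel among the largest decreases, are shown so that their letters can be read beside the levels above; Kel had the only entry among the 6 largest decreases. Sequences are from RefSeq (GRCm38.p6), in which 7 of the 12 largest changes looked up had an entry. Capitals mark matches, on either strand, to TGANTCA (the AP-1 site of FOS, JUN and BATF dimers), TTCNNNNGAA (a STAT site), GAAANNGAAA (an interferon response element) and AGATAA (a core site of GATA factors).
Il9, chr13:56482258-56482507, minus strand: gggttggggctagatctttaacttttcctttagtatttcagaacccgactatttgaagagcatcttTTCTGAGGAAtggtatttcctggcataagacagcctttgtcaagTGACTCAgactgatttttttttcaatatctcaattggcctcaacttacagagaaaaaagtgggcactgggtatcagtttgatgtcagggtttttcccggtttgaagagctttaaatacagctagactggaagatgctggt
Gpr15, chr16:58718873-58719122, minus strand: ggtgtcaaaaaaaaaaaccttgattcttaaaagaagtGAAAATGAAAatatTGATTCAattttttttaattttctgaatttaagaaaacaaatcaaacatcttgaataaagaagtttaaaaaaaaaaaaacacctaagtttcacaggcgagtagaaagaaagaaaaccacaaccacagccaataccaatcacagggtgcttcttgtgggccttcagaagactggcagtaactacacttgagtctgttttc
Il17rb, chr14:30008897-30009146, minus strand: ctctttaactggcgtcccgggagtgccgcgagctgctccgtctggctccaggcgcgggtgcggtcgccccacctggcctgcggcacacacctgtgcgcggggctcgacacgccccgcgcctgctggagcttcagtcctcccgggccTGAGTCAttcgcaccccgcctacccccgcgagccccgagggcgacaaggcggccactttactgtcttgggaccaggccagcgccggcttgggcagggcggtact
Kel, chr6:41704326-41704575, minus strand: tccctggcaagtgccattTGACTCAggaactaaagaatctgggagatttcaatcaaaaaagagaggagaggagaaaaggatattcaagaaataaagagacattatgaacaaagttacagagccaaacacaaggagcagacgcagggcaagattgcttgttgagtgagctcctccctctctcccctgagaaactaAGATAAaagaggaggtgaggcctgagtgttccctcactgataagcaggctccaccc
The first base of the AP-1 match lay at -140 from the start of Il9, -199 for Gpr15, -104 for Il17rb and -232 for Kel. Of the 7 genes with an entry 5 held such a match, in 55.6% of their 9 promoters. The AP-1 letters were the most frequent of all motifs searched in these promoters, with the STAT letters next at 44.4%. Every sequence shown holds the AP-1 letters, as genes without them are not shown. Il1rn held them in some but not all of its promoters and is not shown either. Apol7c and Myo3b, also with an entry, held none and are not shown. Over all called genes the share of promoters with the AP-1 letters was far smaller. The AP-1 letters were in 5.47% of 1262 promoters of genes higher in Th9 cells, in 4.83% of 1366 promoters of genes lower, in 4.76% of 14277 promoters of all genes tested and in 6.75% of the 32851 promoters of the table. The STAT letters stood in 5.63%, 4.10%, 4.76% and 5.85% of the same sets. The GATA core was found in 9.99% of the whole table and the interferon response element in 2.98%. CAGACA, a box bound by SMAD proteins, was in 15.6% of promoters of higher genes, 12.9% of lower genes, 13.8% of all genes tested and 17.1% of the table, and in none of the 9 promoters of the 7 genes. These are letter matches in a window, not measured binding.

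Other large increases were spread over unrelated functions. Erg, an ETS transcription factor gene, stood at -2.96, -2.90 and -2.74 on Th9 arrays and between -8.28 and -8.11 on Th2 arrays, at least 8.03-fold higher (adjusted p = 9.54e-07). Kynu, kynureninase of tryptophan breakdown, was at least 12.3-fold higher, with an adjusted p of 3.49e-05, and Il1rn, the antagonist of the IL-1 receptor, at least 12.5-fold (adjusted p = 0.000119). Gad2, an enzyme that makes GABA, differed by 5.31 ± 0.33 (adjusted p = 8.32e-06; above background on 2 Th2 arrays) and Tnfsf13b, the B cell survival factor BAFF, by 4.29 ± 0.26 (adjusted p = 6.11e-06). The calls of all 5 were kept with slide as a block. Serpina3g, a serine protease inhibitor of activated T cells, rose by 4.44 ± 0.30 (adjusted p = 1.15e-05) from a level already measured on all 3 Th2 arrays, and this call was also kept (5.23, adjusted p = 0.017). Its neighbour Serpina3f (5.42 ± 0.58, 6.14 without Th9 array 3; above background on 2 Th2 arrays) is a near copy, so their probes may bind each other's transcripts and the split between them is uncertain. The rest of the 15 largest increases were Myo3b (a myosin, at least 11.0-fold), Avpr1a (a vasopressin receptor, at least 8.39-fold), Nat8l (which makes N-acetylaspartate, at least 6.37-fold), Rnase2a (a ribonuclease, 4.97 ± 0.44), Apol7c (an apolipoprotein L, 6.00 ± 0.61) and Cdh1, given below. Rnase2a was above background on 1 Th2 array and Apol7c on 2, and apart from Apol7c and Cdh1 these calls were kept with slide as a block.

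Sln gave the largest decrease. It encodes sarcolipin, an inhibitor of the calcium pump of muscle. Sln had levels of 0.86, 0.85 and 0.93 on the Th2 arrays and -5.88, -4.99 and -4.79 on the Th9 arrays, a difference of -6.10 ± 0.44 (adjusted p = 1.65e-05; -7.89 with slide as a block, adjusted p = 0.00217). Of the 31 actin and muscle genes tested 26 stayed still, and the actin-binding gene Tagln2 was lower (-0.81 ± 0.18, adjusted p = 0.0114). Mlana, an antigen of pigment cells, was at least 9.25-fold lower (adjusted p = 1.25e-06), Kel, a membrane protease of red cells, at least 19.6-fold (adjusted p = 0.000231) and Clu, the secreted chaperone clusterin, at least 9.62-fold (adjusted p = 0.000111). Aldh1a3, which makes retinoic acid, was at least 7.3-fold lower (adjusted p = 1.68e-06). Of 18 genes of retinoic acid and vitamin D metabolism and response 12 stayed still (66.7%, near the 67.9% of all genes). The brightest of these genes was Prxl2a, a peroxiredoxin-like protein, at 5.55, 5.63 and 5.75 on Th2 arrays and 1.54, 1.75 and 2.40 on Th9 arrays, 13.4-fold lower (adjusted p = 4.04e-06). All 6 of these genes kept their calls with slide as a block. The rest of the 15 largest decreases were the predicted gene Gm6213 (at least 14.6-fold), Mogat2 (a triglyceride enzyme, at least 6.07-fold), BC016579 (at least 2.95-fold), the transcription factor genes Nkx3-2 (at least 2.71-fold) and Prdm8 (-3.44 ± 0.19), Nos1 (neuronal nitric oxide synthase, -3.96 ± 0.50), and Plxnb3, Csf2 and Ifi44, given below. Nos1 and Prdm8 were above background on 2 Th9 arrays. Of these 9, the first 5 kept their calls with slide as a block.

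Within the TGF-β pathway, several receptor genes other than the TGF-β receptor pair rose, and target genes moved both ways. Of 15 ligand and activator genes tested, 2 were higher and 2 lower (13.3% each), and 7 still (46.7%). The median difference was 0.41, against -0.03 over all genes, and -0.06 with slide as a block. Tgfb3, a TGF-β isoform, stood at 4.48, 4.56 and 4.02 on Th9 arrays and 3.51, 3.25 and 2.27 on Th2 arrays, a difference of 1.34 ± 0.28 (adjusted p = 0.00929). Inha, the inhibin alpha chain, was higher by 2.04 ± 0.27 (adjusted p = 0.000769), and Nrros, which holds latent TGF-β, was lower (-0.65 ± 0.14, adjusted p = 0.0111). Tgfb1, the main isoform of lymphocytes, was lower in a narrow range, 1.71, 1.53 and 1.74 against 2.02, 2.04 and 2.07 (-0.38 ± 0.10, adjusted p = 0.0252). That call ended without Th9 array 2 (-0.32, adjusted p = 0.101) and without any 1 of the Th2 arrays (-0.39, -0.38 and -0.37, adjusted p = 0.0644, 0.0711 and 0.0669). It also ended when only the 6 arrays were fitted (adjusted p = 0.0507).

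Of 12 receptor genes 5 were higher, none lower (none at an unadjusted limma p under 0.05) and 6 still, with a median of 0.37 (0.29 with slide as a block), and all 5 were called whichever of the 6 arrays was left out. Acvr2a, an activin type II receptor, stood at -1.21, -1.59 and -1.61 on Th9 arrays and -3.58, -3.84 and -4.19 on Th2 arrays, a difference of 2.40 ± 0.20 (adjusted p = 3.67e-05). Tgfbr3, the co-receptor betaglycan, differed by 2.18 ± 0.12 (adjusted p = 4.51e-06). Both calls were kept with slide as a block (2.54 and 2.09, adjusted p = 0.0284 and 0.0177). The type I receptors Acvrl1 (2.17 ± 0.45) and Acvr1 (1.28 ± 0.16) were higher too, with adjusted p = 0.00976 and 0.000574, as was Bmpr2 (0.80 ± 0.16, adjusted p = 0.00718), which was named after its value was seen. The signalling pair itself did not pass. Tgfbr1 stood at 0.80, 0.70 and 1.11 against 0.52, 0.51 and 0.76 (0.27 ± 0.12, adjusted p = 0.155) and Tgfbr2 at 3.43, 3.30 and 3.33 against 2.98, 2.89 and 2.81 (0.46 ± 0.15, adjusted p = 0.0585). The Th9 arrays of Tgfbr2 all lay above the Th2 arrays, and its call was made when only the 6 arrays were fitted (adjusted p = 0.0278), with quantile normalization (adjusted p = 0.028) and with normexp background correction (adjusted p = 0.00921). With slide as a block its sign turned (-0.12, adjusted p = 0.933).

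Among 8 SMAD genes 2 were higher, 1 lower and 5 still (62.5%, near the 67.9% of all genes). Smad7, the inhibitory SMAD that TGF-β induces, stood at 0.10, 0.06 and -0.19 against -0.44, -0.70 and -0.74 (0.62 ± 0.12, adjusted p = 0.00752). Smad3, a transducer, stood at 0.90, 0.88 and 0.87 against 1.84, 1.70 and 1.36 (-0.75 ± 0.13, adjusted p = 0.00416). In both genes the groups did not overlap, and both calls held whichever of the 6 arrays was left out. Smad2 (0.23 ± 0.11) and Smad4 (-0.03 ± 0.13) stayed still. Smad9, a SMAD of BMP signalling, was at least 1.29-fold higher (adjusted p = 0.0085), with no Th2 array above background, and this call ended with normexp background correction (0.09, adjusted p = 0.535). Among 14 genes that limit SMAD signalling 3 were higher (21.4%), 1 lower (7.14%) and 10 still (71.4%). The lower and still shares were near the 9.24% and 67.9% of all genes. Pmepa1, a membrane protein that captures SMADs, stood at 1.08, 1.00 and 1.01 against -0.42, -0.31 and -0.56 (1.46 ± 0.10, adjusted p = 1.58e-05), and this call was kept with slide as a block (1.30, adjusted p = 0.047). Skil, the SnoN corepressor, was also higher by 1.46 (± 0.18, adjusted p = 0.000468), and Tgif2, another corepressor, was lower (-0.74 ± 0.11, adjusted p = 0.00161). Ski, the close relative of Skil, stayed still (0.14 ± 0.14).

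**Figure D2:**
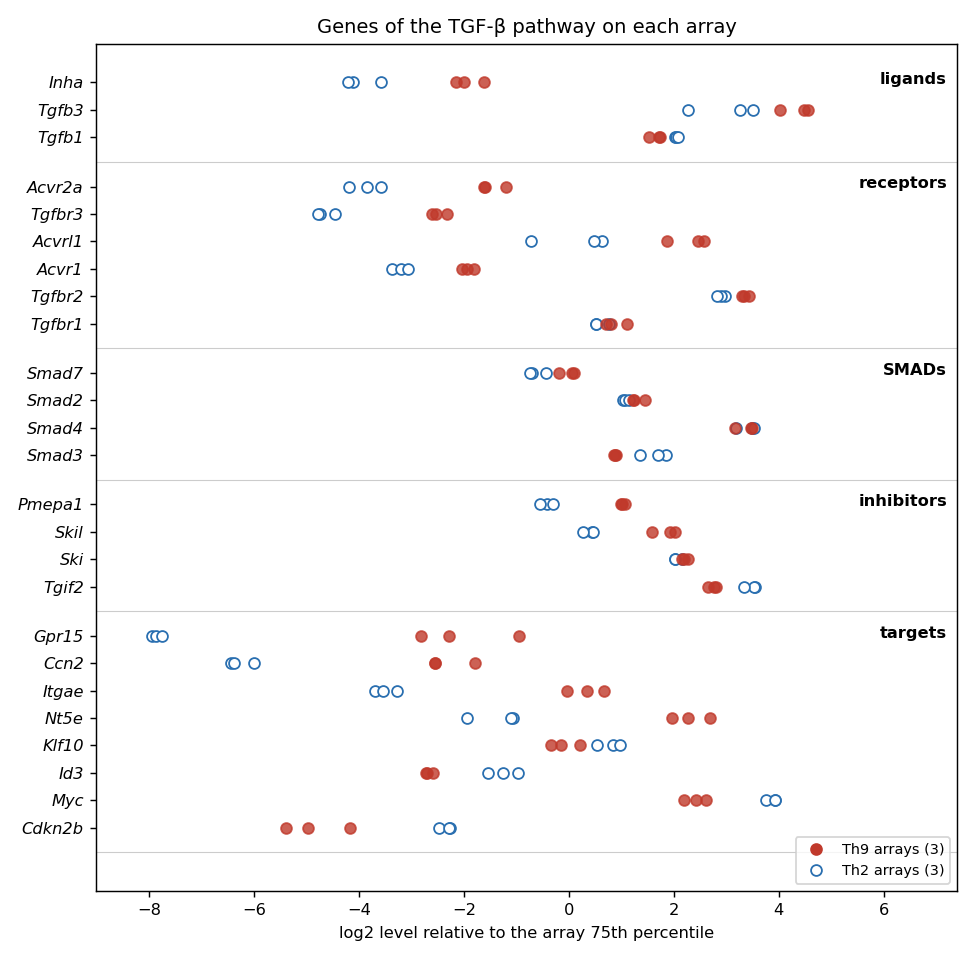
Log2 level relative to the array's 75th percentile of genes of the TGF-β pathway, with 1 point per array (3 Th9 arrays filled, 3 Th2 arrays open), grouped by role. The groups are far apart for Gpr15, Ccn2, Itgae and Nt5e, close together for Tgfbr1, Smad2 and Ski, and on top of each other for Smad4.

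Genes long known as TGF-β targets split in both directions. Of 29 tested, 7 were higher, 6 lower and 7 still (median 0.16), and 6 of the higher and 5 of the lower were called in every fit that left out an array. Beside Gpr15 the increases were led by Ccn2, a matricellular protein, at -2.56, -2.54 and -1.78 against -5.99, -6.44 and -6.37 and at least 11.9-fold higher (adjusted p = 0.0001). Itgae, the αE integrin chain that binds E-cadherin, stood at 0.67, -0.03 and 0.35 against -3.27, -3.69 and -3.55 (3.84 ± 0.37, adjusted p = 9.97e-05). Nt5e, the CD73 enzyme that makes adenosine, stood at 2.68, 2.27 and 1.96 against -1.06, -1.10 and -1.94 (3.67 ± 0.27, adjusted p = 1.89e-05). Itgae and Nt5e kept their calls with slide as a block (5.38 and 3.71, adjusted p = 0.00734 and 0.0403), as Gpr15 did. Cdh1, E-cadherin itself, was among the 15 largest increases of all genes (4.33 ± 0.55, adjusted p = 0.000557), with 2 Th2 arrays above background. Lower genes included Myc, a transcription factor of cell growth that TGF-β represses in many cells (-1.46 ± 0.15, adjusted p = 0.000144), and Id3, an inhibitor of E proteins (-1.42 ± 0.19, adjusted p = 0.0007). They also included 2 genes that TGF-β raises in many other cells. These were Cdkn2b, the cell cycle inhibitor p15, at -4.97, -5.39 and -4.17 against -2.48, -2.26 and -2.27 (-2.50 ± 0.32, adjusted p = 0.000557), and the repressor Klf10 (-0.88 ± 0.18, adjusted p = 0.00998).

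Apart from Il9, the cytokines that mark Th2 cells were lower or did not pass. Of 13 type 2 cytokine genes and neighbours 3 were higher (Il9, Il1rn and Il6), 4 lower, 1 still and 5 undecided, and 2 and 3 of the called genes were called in every fit that left out an array. Il13 stood at -3.73, -3.18 and -2.80 on Th9 arrays and -1.66, -1.70 and -1.66 on Th2 arrays (-1.56 ± 0.23, adjusted p = 0.00126). Il4 stood at 3.79, 3.91 and 4.18 against 5.05, 5.16 and 4.89, groups that do not overlap (-1.07 ± 0.39, adjusted p = 0.0884, range over the alternatives 0.00507 to 0.833). Its call was made when only the 6 arrays were fitted (adjusted p = 0.00507), with normexp background correction (adjusted p = 0.0125) and without the restimulated array 3 (adjusted p = 0.0479). Il10 stayed still at 2.28, 2.24 and 2.90 against 2.75, 2.38 and 2.23. Il5 was undecided, with a difference of 0.02 and an interval from -1.01 to 1.05, and was at 1.89 ± 0.44 with slide as a block (adjusted p = 0.0751). Its SD was 0.19 on Th9 arrays, 0.25 on Th2 arrays and 1.24 on Treg arrays, and the interval includes the Treg spread. The median of the list was 0.02, and with slide as a block 0.81, with 2 members called higher. Csf2, the cytokine GM-CSF, stood at -4.79, -4.46 and -4.39 against -0.95, -1.10 and -0.82 (-3.59 ± 0.69, adjusted p = 0.00619), but at 0.07 with slide as a block. Its neighbour Il3 was at least 1.47-fold lower (adjusted p = 0.0082), on 2 Th2 arrays above background and no Th9 array, and was not called with normexp background correction (-0.47, adjusted p = 0.496). Lta and Osm, of the Th1 and Th17 list, were lower (-1.09 ± 0.23 and -1.70 ± 0.19, adjusted p = 0.011 and 0.000231), and Fasl, the death ligand, was higher (2.10 ± 0.37, adjusted p = 0.00413).

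More interleukin receptors were higher than lower, but none was called with slide as a block. The lower share was near that of all genes. Of 34 interleukin receptor genes 9 were higher (26.5%) and 4 lower (11.8%), against 7.76% and 9.24% of all genes. Of these, 6 and 3 were called in every fit that left out an array. The median was 0.17, and -0.06 with slide as a block. The shared beta chains of the IL-3, IL-5 and GM-CSF receptors were both higher, Csf2rb by 2.78 ± 0.49 and Csf2rb2 by 3.38 ± 0.34 (adjusted p = 0.00408 and 0.000122). These are near copies whose probes may bind each other's transcripts. Il5ra, the specific chain of the IL-5 receptor, stood at -3.78, -3.32 and -3.64 against -5.59, -4.91 and -6.42 (2.06 ± 0.42, adjusted p = 0.00856; 2 Th2 arrays above background), a call that ended with normexp background correction (0.47, adjusted p = 0.0747). Il1rl1, the IL-33 receptor, stood at -2.79, -2.79 and -2.61 against -5.65, -4.64 and -4.84 (2.31 ± 0.41, adjusted p = 0.00432), with 2 Th2 arrays above background. Its partner chain Il1rap (-0.80 ± 0.15, adjusted p = 0.00514) and its signalling kinase Irak2 (-1.45 ± 0.14, adjusted p = 0.000114) were lower, and the Irak2 call was kept with slide as a block (-1.83, adjusted p = 0.0378). Il2ra was higher (0.83 ± 0.13, adjusted p = 0.00231), Il2rb lower (-0.57 ± 0.11, adjusted p = 0.00628) and Il12rb1 lower (-0.71 ± 0.15, adjusted p = 0.0108). Il4ra, the receptor of the cytokine that both cultures received, was among the brightest of the named genes in both, at 7.0, 6.97 and 7.15 against 6.51, 6.54 and 6.27 (0.60 ± 0.22, adjusted p = 0.0884). Its adjusted p was 0.02 when only the 6 arrays were fitted, and its sign turned with slide as a block (-0.35, adjusted p = 0.826).

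**Figure D3:**
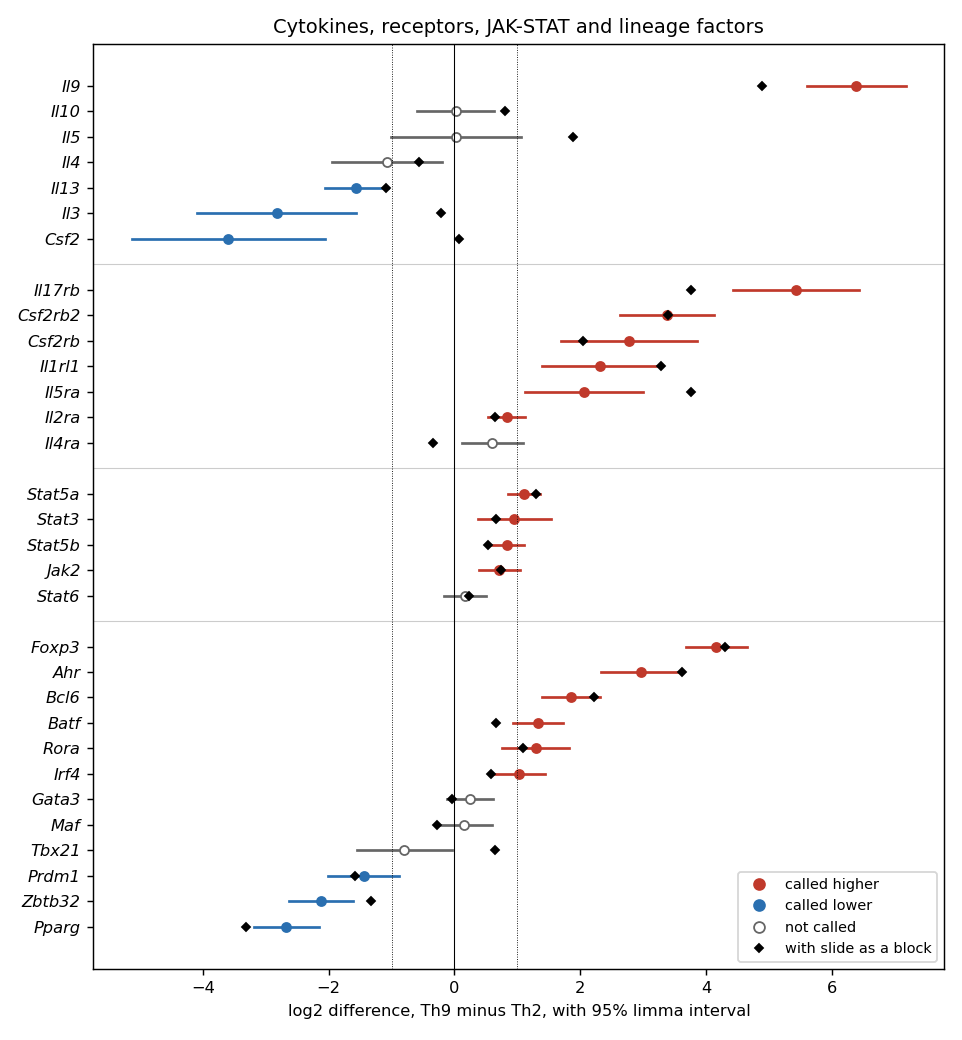
Log2 difference, Th9 minus Th2, with its 95% limma interval for cytokines, receptors, JAK and STAT genes and lineage factors, from top to bottom; black diamonds give the difference with slide as a block and dotted lines mark -1 and 1. Il9, Il17rb and Foxp3 lie far to the right in both fits, Pparg far to the left in both, and Csf2 and Il3 near 0 only with the slide block.

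JAK and STAT genes leaned upward. Of 11, 5 were higher, none lower (none at an unadjusted limma p under 0.05) and 5 still (median 0.54, 0.35 with slide as a block), and 3 of the 5 were called in every fit that left out an array. Stat5a, which carries IL-2 signals, stood at 3.77, 3.73 and 3.74 against 2.76, 2.62 and 2.53 (1.11 ± 0.12, adjusted p = 0.000158) and Stat5b was higher by 0.84 ± 0.12 (adjusted p = 0.00113). Jak2, a kinase of several cytokine receptors, was higher by 0.71 ± 0.15 (adjusted p = 0.00939), a call that ended with the mean of all its probes (adjusted p = 0.0773). Stat3, which carries IL-6 and IL-10 signals, was higher by 0.95 ± 0.26 (adjusted p = 0.0316), a call that ended without Th9 array 1 or 2 (adjusted p = 0.094 and 0.112) or Th2 array 2 or 3 (adjusted p = 0.0593 and 0.104). It also ended with the mean of all its probes (0.76, adjusted p = 0.0665), with no filter on dim probes (adjusted p = 0.0534) and with only the 6 arrays (adjusted p = 0.0504). Stat6, the transducer of IL-4, stayed still at 3.30, 3.13 and 2.83 against 3.10, 3.08 and 2.61.

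Lineage transcription factors moved both ways, while Gata3 and Maf stayed still. Of 24 tested, 7 were higher (29.2%), 7 lower (29.2%) and 9 still (37.5%). Foxp3 stood at -1.98, -2.07 and -1.90 on Th9 arrays, with no Th2 array above background, and was at least 14-fold higher (adjusted p = 4.51e-06). Ahr, the aryl hydrocarbon receptor, stood at 2.17, 2.09 and 1.99 against -0.37, -0.74 and -1.54 (2.97 ± 0.29, adjusted p = 9.97e-05), and Bcl6, the factor of follicular helper cells, at 2.11, 1.57 and 2.00 against 0.02, -0.09 and 0.21 (1.85 ± 0.21, adjusted p = 0.000273). Calls of all 3 were kept with slide as a block (4.30, 3.62 and 2.21). Rora was higher (1.29 ± 0.24, adjusted p = 0.0054). Batf and Irf4, partners on composite DNA sites, were higher by 1.32 ± 0.18 and 1.03 ± 0.18 (adjusted p = 0.000884 and 0.00423). Gata3 (0.25 ± 0.16; -0.04 with slide as a block) and Maf (0.16 ± 0.19; -0.27 with slide as a block) had intervals within a 2-fold change. Tbx21, the Th1 factor, was lower in value but undecided (-0.80 ± 0.34, adjusted p = 0.136). Its adjusted p was 0.0196 without the restimulated array 3, and its sign turned with slide as a block (0.64, adjusted p = 0.662).

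Several factors linked to Th2 effector cells were lower. Pparg, a nuclear receptor of lipid metabolism that Th2 cells use, stood at 0.84, 1.30 and 1.82 against 3.99, 3.93 and 4.05 (-2.67 ± 0.24, adjusted p = 5.68e-05), and the call was kept with slide as a block (-3.31, adjusted p = 0.0225). Zbtb32 (-2.12 ± 0.23), Prdm1, the factor BLIMP-1 (-1.44 ± 0.25), and Bhlhe41 (-1.43 ± 0.30) were also lower, with adjusted p = 0.000193, 0.00395 and 0.0105. Among AP-1 and related bZIP genes 3 of 31 were higher (9.68%) and 10 lower (32.3%). Of these 10, 4 were called in every fit that left out an array. Jun rose by 1.31 ± 0.22 (adjusted p = 0.00303) and Fosl1 fell (-1.65 ± 0.28, adjusted p = 0.00319). ETS genes diverged, with Erg as above and the pair Etv4 (-2.48 ± 0.27, adjusted p = 0.00023) and Etv5 (-2.50 ± 0.38, adjusted p = 0.00161; 2 Th9 arrays above background), both targets of ERK signalling, lower. Foxo1, a factor of resting T cells, stood at 4.60, 4.44 and 4.47 against 2.72, 2.76 and 2.62 (1.80 ± 0.10, adjusted p = 4.51e-06). The calls of Foxo1 and Etv4 were kept with slide as a block.

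Some genes that the T cell receptor induces were lower. Of 18 early response and feedback genes 2 were higher and 6 lower, with a median of -0.42 that was 0.04 with slide as a block, and 3 of the 6 were called in every fit that left out an array. Dusp6, the phosphatase of ERK, stood at 3.10, 3.19 and 3.51 against 5.04, 4.82 and 4.88 (-1.65 ± 0.16, adjusted p = 9.47e-05), and Egr3 was lower (-1.30 ± 0.25, adjusted p = 0.00632). Dusp4 (1.85 ± 0.20) and Dusp10 (1.39 ± 0.23), other phosphatases of MAP kinases, were higher, with adjusted p = 0.000215 and 0.00303. NF-κB inhibitors were higher in all 3 cases called, Tnfaip3 by 1.22 ± 0.23, Nfkbia by 0.66 ± 0.14 and Nfkbie by 0.59 ± 0.12 (adjusted p = 0.00547, 0.00939 and 0.00961), and 14 of 18 NF-κB and NFAT genes stayed still. Of 30 T cell receptor signalling genes 2 were higher, 5 lower and 22 still (73.3%, near the 67.9% of all genes), the kinase Lck (-0.05 ± 0.09) among the last. The negative regulator Cd5 (-0.74 ± 0.14, adjusted p = 0.00584) and Themis (-0.88 ± 0.17, adjusted p = 0.00577), both known from thymic selection, were the 2 called in every fit that left out an array.

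Enzymes of adenosine, ATP and lipid signals included several large increases. Of 20 adenosine and ATP genes 7 were higher (35%) and 1 lower (5%). In every fit that left out an array 6 of the 7 were called. With Nt5e, these included Cd38, which consumes NAD, at -0.13, -0.37 and -0.77 against -3.83, -3.49 and -4.14 (3.40 ± 0.20, adjusted p = 5.31e-06), and Entpd1, the CD39 enzyme upstream of CD73 (1.24 ± 0.20, adjusted p = 0.00258). P2rx7, the ATP-gated channel, was higher by 1.41 ± 0.19 (adjusted p = 0.000802) and Enpp2, which makes lysophosphatidic acid, by 2.91 ± 0.61 (adjusted p = 0.00972; 2 Th2 arrays above background). The adenosine receptors stayed still, Adora2a at 0.06 ± 0.12 and Adora2b, named after its value was seen, at 0.13 ± 0.19. Of 22 prostaglandin and leukotriene genes 4 were higher and 1 lower. Ptgs1, the COX-1 enzyme, was at least 3.9-fold higher, with an adjusted p of 0.000337, and Hpgds, which makes prostaglandin D2, stood at -1.40, -1.54 and -1.69 against -3.00, -3.11 and -3.54 (1.67 ± 0.17, adjusted p = 0.000133). Both calls were kept with slide as a block, as was that of Cd38. Cysltr2, a leukotriene receptor, was higher (1.58 ± 0.29, adjusted p = 0.00507) and Ptger3, a prostaglandin E2 receptor, lower (-1.89 ± 0.37, adjusted p = 0.00721), the latter at 0.10 with slide as a block.

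Among activation receptors, Cd83 and Cd96 rose and Btla and Klrg1 fell. Cd83, a marker of activated lymphocytes, stood at 4.41, 4.38 and 4.12 against 1.43, 1.57 and 0.50 (3.14 ± 0.25, adjusted p = 3.17e-05), and Cd96 at 2.58, 1.90 and 2.22 against -0.81, -0.77 and -0.59 (2.96 ± 0.36, adjusted p = 0.000445). Both calls were kept with slide as a block (3.64 and 4.30). Btla, an inhibitory receptor, was lower (-1.54 ± 0.15, adjusted p = 9.97e-05) and Klrg1 was at least 3.39-fold lower (adjusted p = 0.00904). Of 23 such receptors 10 stayed still. Ccr8, a chemokine receptor found on Th2 and Treg cells, stood at 1.97, 1.30 and 1.63 against -0.42, -0.35 and -0.46 (2.04 ± 0.16, adjusted p = 2.62e-05; 2.36 with slide as a block, adjusted p = 0.0287). The chemokine gene Ccl5 was lower (-1.99 ± 0.19, adjusted p = 9.74e-05).

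The ligands Ccl3 and Ccl4 were lower as well, Ccl3 at least 3.36-fold (adjusted p = 0.0155) and Ccl4 by a difference of -2.33 ± 0.66 (adjusted p = 0.0365), and both calls ended under several alternatives. With slide as a block they were 0.14 and 0.98. On restimulated arrays 1, 2 and 3 the level of Ccl3 was 6.81, 6.30 and 3.28 and that of Ccl4 was 7.16, 6.61 and 3.85, so the array through which the third slide was tied to the others was the lowest in both. The Ccl3 call ended without Th9 array 2 (-3.29, adjusted p = 0.0509) or Th2 array 3 (-2.82, adjusted p = 0.0575) and with normexp background correction (-0.67, adjusted p = 0.471). The Ccl4 call ended without any 1 of the 6 arrays (differences from -2.52 to -2.13, adjusted p = 0.0642 to 0.107), with normexp (-1.55, adjusted p = 0.0764) and with no filter on dim probes (adjusted p = 0.0606).

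Itgae was the only integrin chain called higher. Of 24 chains tested 1 was higher (4.17%), 6 lower (25%) and 10 still (41.7%). Of the 6, 4 were called in every fit that left out an array. Itgb1, the partner of most matrix-binding chains, stood at 0.15, 0.08 and -0.11 against 0.91, 0.84 and 0.70 (-0.78 ± 0.12, adjusted p = 0.00186). Its partner Itga3 was lower (-1.33 ± 0.22, adjusted p = 0.00242; -2.33 with slide as a block, adjusted p = 0.0195), and Itga9 at least 2.59-fold (adjusted p = 0.00725). Matrix genes moved both ways, with 5 of 21 higher and 5 lower (23.8% each), 3 of each in every fit that left out an array. Nid2, a basement membrane protein, was at least 3.32-fold lower, with an adjusted p of 0.00357, and Spp1, the cytokine osteopontin, was lower (-1.98 ± 0.42, adjusted p = 0.00991; -0.33 with slide as a block). Of 32 collagen and laminin chains 2 were higher, 3 lower and 21 still (65.6%, near the 67.9% of all genes), and Col5a1, a fibrillar collagen, was higher (3.71 ± 0.32, adjusted p = 4.97e-05). Anxa1, an annexin of resolving inflammation, stood at -4.25, -4.54 and -4.42 against -1.06, -1.29 and -1.64 (-3.07 ± 0.26, adjusted p = 4.2e-05), and S100a10, which pairs with another annexin, was lower (-1.25 ± 0.18, adjusted p = 0.00119; kept with slide as a block at -2.0).

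More G protein coupled receptor and ion channel genes were higher than lower, but with slide as a block 2 of these receptors were higher and 4 lower, and 1 channel subunit was higher. Of 79 receptors, orphan, adhesion and lipid receptors among them, 14 were higher (17.7%) and 6 lower (7.6%, near the 9.24% of all genes). Of these, 10 and 4 were called in every fit that left out an array. The 14 included Gpr65, a sensor of acid (1.76 ± 0.20, adjusted p = 0.000273), and S1pr3, a receptor of sphingosine phosphate (2.25 ± 0.24, adjusted p = 0.000166). Gpr34, a lysophosphatidylserine receptor, fell by 2.78 (± 0.23, adjusted p = 4.44e-05, and -3.15 with slide as a block, adjusted p = 0.0186). Of 71 ion channel subunits 12 were higher (16.9%) and 2 lower (2.82%). The medians of both families turned sign with normexp background correction (-0.08 for channels and -0.06 for these receptors, against 0.11 and 0.14). Kcna3, the potassium channel of effector T cells, was at least 1.99-fold lower (adjusted p = 0.000252). Sugar transferases were split, 12 higher (17.9%) and 9 lower (13.4%) of 67. Mgat5, which builds the branches that galectins bind, was higher (1.80 ± 0.24, adjusted p = 0.000857), a call kept with slide as a block (2.64, adjusted p = 0.0251), as were St6galnac2 (2.80 ± 0.32, adjusted p = 0.000287) and Mgat3 (2.06 ± 0.26, adjusted p = 0.000499), whose calls were not. The galactosyltransferase gene B4galt4 was lower (-2.0 ± 0.31, adjusted p = 0.00183).

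Among transporters and guidance proteins the large changes were single genes. Of 256 solute carriers 18 were higher (7.03%) and 23 lower (8.98%), close to the shares over all genes. Slc2a6, a sugar transporter, stood at 2.09, 1.73 and 2.44 against -1.58, -1.28 and -0.94 (3.35 ± 0.22, adjusted p = 9.37e-06; 3.23 with slide as a block, adjusted p = 0.0302), and Slc7a8, an amino acid transporter, was lower (-2.88 ± 0.54, adjusted p = 0.00541; -3.59 without Th9 array 3). The drug efflux pumps Abcb1a, Abcb1b and Abcb4 were higher by 3.21 ± 0.41, 2.01 ± 0.29 and 2.11 ± 0.29 (adjusted p = 0.000559, 0.00132 and 0.000924; Abcb1a above background on 2 Th2 arrays), but these neighbours are near copies and their probes may share transcripts. Efna5, an ephrin, stood at 2.73, 2.55 and 2.75 against -0.81, -0.76 and -0.38 (3.33 ± 0.25, adjusted p = 2.1e-05; 3.39 with slide as a block, adjusted p = 0.0429). Plxnb2 and Plxnb3, receptors of semaphorins, were lower (-1.22 ± 0.19 and -3.65 ± 0.49, adjusted p = 0.00198 and 0.000772; Plxnb2 kept its call with slide as a block at -2.08, adjusted p = 0.0348), and so was the co-receptor Nrp1, a marker of thymic Treg cells (-1.62 ± 0.35, adjusted p = 0.0111).

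Growth genes leaned lower, but that lean was not seen with slide as a block. Of 29 ribosome biogenesis genes none was higher (none at an unadjusted limma p under 0.05) and 10 were lower (34.5%), with a median of -0.56 that was -0.02 with slide as a block, and 4 of the 10 were called in every fit that left out an array. Polr1b, a subunit of RNA polymerase I, stood at -1.07, -0.68 and -0.69 against 0.35, 0.13 and 0.57 (-1.17 ± 0.24, adjusted p = 0.00893; -0.09 with slide as a block), and Gar1, a protein of small nucleolar RNPs, was lower (-0.92 ± 0.21, adjusted p = 0.0127). Amino acid supply genes had a median of -0.56 (0.03 with slide as a block), with 1 of 29 higher and 6 lower, among them Gpt2, an alanine transaminase (-1.33 ± 0.22, adjusted p = 0.00257) and Phgdh, the entry enzyme of serine synthesis (-0.97 ± 0.21, adjusted p = 0.0125). Nucleotide and polyamine synthesis had 9 of 29 lower and 1 higher. With the replicate number as a block 5 were lower, and none of the 9 was called in every fit that left out an array. Among 21 heat shock genes 6 were lower, with Hspa1a, the inducible HSP70, at 4.13, 3.24 and 2.49 against 5.61, 6.18 and 4.52 (-2.15 ± 0.44, adjusted p = 0.0081). Hspd1 (-0.78 ± 0.16), Hsp90aa1 (-0.69 ± 0.14) and Hspa4 (-0.71 ± 0.10) were lower by less than 2-fold.

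Most genes of ribosomes, respiration, division and glycolysis stayed still, against 67.9% of all genes. All but 1 of 83 cytosolic ribosomal protein genes did, as did all 17 subunits of the vacuolar ATPase, 40 of 43 of respiratory complex I and 70 of 78 of the mitochondrial ribosome (the other 8 were lower, by at most 0.61). In mitosis 28 of 30 genes stayed still and in DNA replication 28 of 33, with 2 lower in the latter. Exosome and small nucleolar RNP genes differed from these, with 52 of 71 still (73.2%) and 14 lower (19.7%, against 9.24% of all genes). With the replicate number as a block 8 were lower, and 4 were in every fit that left out an array. Their median was -0.22, but 0.05 with slide as a block, where 1 was higher and 1 lower. Glycolysis had 18 of 20 still, among them Ldha, which makes lactate, at 8.50, 8.48 and 8.39 against 8.50, 8.57 and 8.29. MHC class I and antigen processing had 16 of 17 still and cholesterol synthesis 22 of 26. Fatty acid genes were less even, with 5 of 25 lower and 1 higher. Plin2, which coats lipid droplets, stood at 3.67, 3.65 and 3.71 against 4.81, 4.96 and 4.83 (-1.19 ± 0.20, adjusted p = 0.00295; -2.06 with slide as a block, adjusted p = 0.00703), Acly, which makes cytosolic acetyl-CoA, was lower (-0.90 ± 0.11, adjusted p = 0.000341), and Dgat2, which makes triglyceride, was higher (1.5 ± 0.32, adjusted p = 0.0107). Among 31 lysosome and autophagy genes 7 were higher (22.6%), 1 lower and 22 still (71.0%, near the 67.9% of all genes). The median was 0.25, but 0.005 with slide as a block, where none was called. Map1lc3a, Optn and Ctss rose by 1.59 ± 0.14, 1.16 ± 0.15 and 1.05 ± 0.18 (adjusted p = 6.91e-05, 0.000537 and 0.00379). A list of death and survival genes (BCL2 family, caspases and caspase inhibitors) had 8 of 27 lower (29.6%, against 9.24% of all genes) and 2 higher. The list mixes genes that promote death with genes that prevent it, so its counts give no direction for cell death. Of the 8, 5 were called in every fit that left out an array. No gene of this list was called lower with slide as a block. The caspase gene Casp1 was among the lower genes (-0.96 ± 0.19, adjusted p = 0.00827).

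**Figure D4:**
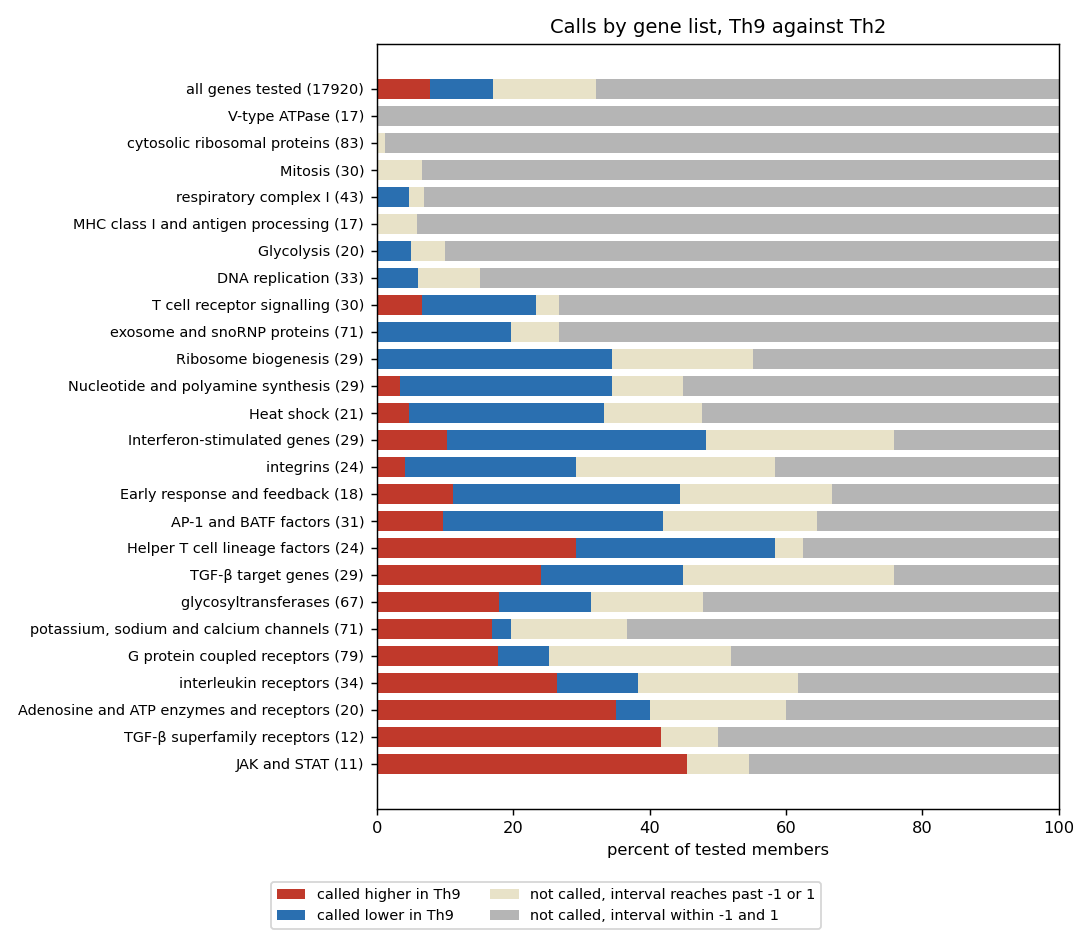
Share of tested members of each gene list or family in each class of call, with the number tested in parentheses and all 17920 genes in the top bar. The vacuolar ATPase, ribosomal protein, mitosis and MHC class I bars are almost wholly still, ribosome biogenesis and interferon-stimulated genes hold the most lower calls, and JAK and STAT genes and TGF-β superfamily receptors hold higher calls and no lower ones.

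Interferon-stimulated genes were lower on balance, with Th2 arrays that differed among themselves. Of 29 tested 3 were higher and 11 lower (37.9%), with a median of -0.38 (-1.01 with slide as a block), and 5 of the 11 were called in every fit that left out an array. Mx2, an antiviral GTPase, stood at -4.83, -4.67 and -4.44 on Th9 arrays and -3.35, -2.08 and -1.39 on Th2 arrays (-2.37 ± 0.42, adjusted p = 0.00397). Mx1 (-2.28 ± 0.49, adjusted p = 0.011) and Ifi44 (-3.54 ± 0.77, adjusted p = 0.0118) spread in the same way over the Th2 arrays, from -4.33 to -2.03 and from -4.59 to -0.56. The Ifi44 call ended when only the 6 arrays were fitted (adjusted p = 0.0502), 1 of its Th9 arrays was above background, and its difference was -4.58 without Th2 array 1 and -2.57 without Th2 array 3. Isg20, an exonuclease, was even over the Th2 arrays at 3.48, 3.67 and 3.40, against 0.49, 0.99 and 0.24 (-2.94 ± 0.30, adjusted p = 0.00014), and its call was kept with slide as a block (-2.65, adjusted p = 0.041).

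Ahrr and Cyp1a1, targets of the aryl hydrocarbon receptor, were higher beside Ahr, but Cyp1a1 was not called in every fit. Ahrr, its repressor and target, stood at -2.45, -1.38 and -0.94 against -5.61, -6.60 and -5.46 (4.30 ± 0.45, adjusted p = 0.000165), with 1 Th2 array above background. Cyp1a1, the classical target enzyme, was at least 5.18-fold higher (adjusted p = 0.0288). That call ended without Th9 array 2 or 3 (adjusted p = 0.0935 and 0.0684), without Th2 array 2 or 3 (adjusted p = 0.0976 and 0.0712) and with normexp background correction (0.73, adjusted p = 0.194). Of 7 genes of this pathway 4 were higher and 2 still, and 2 of the 4 were called in every fit that left out an array. With slide as a block 1 was called, Ahr itself.

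Markers of several other cell types differed in level between the cultures. T cell markers were bright in both, with 9 of 9 on the array above background on every array and summed linear signals, in units of the array's 75th percentile, of 291.5 to 337 in Th9 and 348.5 to 361.5 in Th2 cells. B cell markers summed to 5.34 to 7.08 in Th9 and 2.63 to 4.57 in Th2 cells, with 3 of 10 higher, and the median difference was 0.83 (2.02 with slide as a block, 0.16 with normexp background correction). Fcrla (at least 2.74-fold, adjusted p = 0.000387; not called with normexp) and Ebf1 (1.66 ± 0.30, adjusted p = 0.00415) were among them. CD8 T cell and NK cell markers summed to 36.2 to 47.2 against 19.1 to 25.8, with 2 of 8 higher and Ncr1 not above background on any array. The other 6 tested were undecided. Differences in this list ran from -2.22 to 1.87, and 1 member was lower at an unadjusted limma p under 0.05. Eomes was higher (1.70 ± 0.35, adjusted p = 0.00903, and 3.08 with slide as a block, adjusted p = 0.0221). Gzma, a granzyme, was higher by 1.87 ± 0.52 (adjusted p = 0.0338), a call that ended with replicate number as a block (adjusted p = 0.055), with no filter on dim probes (adjusted p = 0.0563) and without any 1 of the 6 arrays. MHC class II genes, a list added after its values were seen, had 6 of 10 higher (median 1.04, 1.85 with slide as a block), with H2-DMb2 at 0.58, 0.60 and 0.54 against -0.77, -0.61 and -0.78 (1.29 ± 0.14, adjusted p = 0.000165; 1.85 with slide as a block, adjusted p = 0.0216). Cd40, of B cells and myeloid cells, was higher by 2.33 ± 0.40 with 2 Th2 arrays above background (adjusted p = 0.00356; 4.32 with slide as a block, adjusted p = 0.0234), a call that ended with normexp background correction (0.73, adjusted p = 0.0572). Innate lymphoid cell markers, a list that holds Il17rb and Il1rl1, summed to 1.18 to 1.83 against 0.34 to 0.48, with 3 of 6 higher and 1 lower (median difference 0.97, 1.5 with slide as a block). Klrg1 and Nmur1 of that list were not above background on any Th9 array. Stromal and endothelial markers went the other way, with sums of 6.01 to 6.48 in Th9 and 7.23 to 9.39 in Th2 cells. Of 6 tested 1 was lower and none higher (median difference -0.49, and -0.98 with slide as a block). Myeloid markers overlapped, 2.29 to 3.19 against 2.54 to 3.13, and of 7 neutrophil markers 6, S100a8 and S100a9 among them, were not above background on any array. The part of these cells in the results on Il17rb, Il1rl1, Eomes, Tnfsf13b, Cd38, Cd83, Ctss and class II genes was not tested.

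With slide as a block, the largest changes tended to keep their calls. Among the 162 called genes named here, 53 were called with the block, 4 turned (Csf2, Ccl3, Ccl4 and Ptger3) and the others kept only their sign. Of the 17 uncalled genes named here 9 changed sign. Il9, Gpr15, Erg, Foxp3, Itgae, Nt5e and Pmepa1 were among the increases that were called in both fits, and Sln, Mlana, Kel, Aldh1a3, Prxl2a and Pparg among the decreases.

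**Figure D5:**
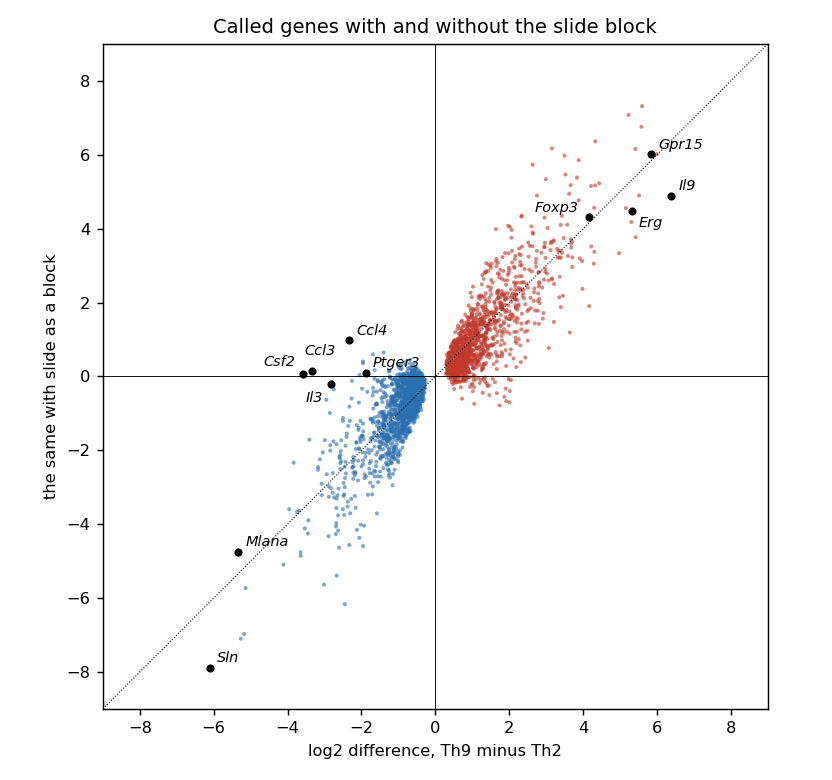
Log2 difference, Th9 minus Th2, with slide as a block against the same difference without it, for the 3047 called genes (red higher, blue lower); the dotted line marks equality. Most points follow the line, Il9 and Sln lie far out in both fits, and Csf2, Ccl3, Ccl4, Il3 and Ptger3 lie near or above 0 on the vertical axis only.

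The Treg arrays, from cells given TGF-β and an antibody against IL-4, give the levels of the same genes in cells that had TGF-β and no added IL-4. Mean levels over the 3 Treg arrays were 0.57 ± 0.19 (SD) for Foxp3, 1.84 ± 0.07 for Nt5e, -1.24 ± 0.23 for Itgae and -3.96 ± 0.23 for Gpr15. They were -7.76 ± 0.36 for Il9, -6.76 ± 0.33 for Il17rb, -7.30 ± 0.06 for Erg and -6.24 ± 0.62 for Efna5. Foxp3 was thus higher in Treg than in Th9 arrays in value, Nt5e and Itgae lay nearer the Th9 than the Th2 levels, and Il9, Il17rb, Erg and Efna5 lay far below the Th9 levels. These contrasts were not tested here.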

How the data were processed

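RNA was measured on single-colour 4x44K Agilent mouse arrays. The deposited spot intensity is the scanner's processed signal, which per the file headers came from Agilent Feature Extraction (version 10.5.1.1), background-subtracted, detrended and not scaled between arrays. The authors also deposited a table of log2 values, which correlated at 0.9996 or above with the log2 processed signal of the same array; its column medians were 5.171 to 5.174, and how it was centred is not given in the sources used here. It served as an alternative.

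Here, log2 intensity minus each array's 75th percentile (521 to 796 units) was used. Control spots were removed, and of 41174 probes the 27130 well above background on at least 3 of 12 arrays were kept, with the brightest probe standing for a gene. Probes were named through RefSeq accessions (24496), current symbols (6234), older symbols (2386) or the array's own names (8058). limma 3.58.1 in R 4.3.3 was fitted to all 12 arrays with a mean for each of 4 groups, so that the Treg and restimulated arrays lent their spread, and p-values were adjusted by Benjamini-Hochberg over 17920 genes. The number of arrays limits the precision. On simulated data for this comparison (17920 genes), 68% of genes changed by 1 and 91% of those changed by 2 on the log2 scale were recovered, with 4.22% of calls false. The simulated arrays held 200 changed genes and no slide effect. These rates therefore do not apply to differences between slides, which the real calls may contain.

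Titles number the arrays of each group, and same-numbered Th9 and Th2 arrays deviated together (r = 0.20, 0.18 and 0.41). Pairs of unlike number ran from -0.30 to 0.12. Deviations from a mean of 3 arrays are tied to each other, so these values are not independent. The labels do not say what a number shares. A fit with the number as a block was an alternative, as were the background correction, scaling, probe filter, probe summary, the 6 arrays alone, slide as a block and leaving out arrays. Leaving out the restimulated array 3 was chosen after seeing the data.

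Named genes were the 15 largest changes each way among called genes with groups that do not overlap, up to 4 called members each way and 3 of the narrowest members around 0 from each of 62 lists and 60 families, and a fixed set of cytokine, lineage and TGF-β genes. The rule gives 834 genes, of which most are not reported here; the text names 179 genes, picked with their values known, of which 2 (Bmpr2 and Adora2b) fall outside the rule. Genes and lists were chosen with earlier results of these data known.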

Additional observations from a re-analysis of the deposited data

How the results depend on the processing

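With slide as a block, 186 genes were called higher and 129 lower, against 1391 and 1656 without it, and 4 called genes named in the text changed sign, Csf2 to 0.075, Ptger3 to 0.10, Ccl3 to 0.14 and Ccl4 to 0.98. That block rests on the restimulated Th9 array 3, and the cause of the change was not tested. Leaving out 1 of the 6 arrays gave 848 to 1255 genes higher and 885 to 1496 lower. With replicate number as a block the counts were 1401 and 1682, with 1269 and 1455 of the same genes, and among the 162 called genes named in the text this block changed no call but that of Gzma. Under the other settings the counts were 1170 to 1561 higher and 1296 to 2298 lower, and the lowest higher count came with no filter on dim probes and the highest lower count with normexp background correction. Of the 162 named calls, 154 held with normexp, under which 70 differences were smaller by over 1.5 times, 159 with no filter, 161 with probes above background on all arrays of either group, 160 with the mean of probes, 159 with only the 6 arrays, and all with quantile normalization, the median of bright probes and the authors' table. Limits are the 3 arrays per group, the lack of a slide shared by both cultures and the unstated IL-4 of Th2 cells after day 3. For genes below background in a group, only a bound was measured.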
